A study of Mus musculus with 6 samples.

Results

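Fos, Fosb, Fosl2, Jun, Junb, Jund, Egr1, Egr2, Egr3 and Atf3 are 10 of the 16749 genes listed in RNA-seq libraries of CD8+ T cells, and they were chosen as the AP-1 and EGR transcription factor genes of the immediate early class. FACS sorting took the cells from a tissue that the labels abbreviate as iLN, in tumor-bearing C57BL/6 mice treated with oxaliplatin, a DNA-crosslinking platinum compound. The 3 libraries called WT came from Id2f/f mice, in which Id2 is flanked by recombination sites and no Cre is present. The 3 called knockout came from Cd4creId2f/f mice, in which Cre is driven from Cd4 sequences and so acts in the T cell lineage from the thymus onward. All 6 libraries share the floxed allele, the tumor and the drug, and no age, tumor line, dose or untreated group is given in the labels. Because WT mice lacked Cre, effects of Cre and of Id2 loss cannot be told apart. The labels do not tie libraries to animals, so p-values measure only the spread between these libraries, and that spread may be technical.

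AP-1 is a dimer of basic leucine zipper proteins, formed by a FOS protein with a JUN protein or by JUN proteins alone, and Atf3 is a related protein that pairs with JUN proteins. Their genes are transcribed within minutes of a stimulus from transcription factors already in the cell, such as CREB, SRF and ATF proteins, and in T cells AP-1 binds with NFAT at cytokine genes after the antigen receptor is engaged. The EGR proteins are zinc finger factors induced by the same signals through MAP kinases, and Egr2 and Egr3 are known in T cells for genes that restrain activation. Id2, the deleted gene, codes for an inhibitor that keeps E proteins off DNA.

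The promoters of 5 members are shown because their levels, given further on, moved apart between libraries (Fos, Jun, Egr2 and Atf3) or stood highest (Junb). Each line is the 250 bases before the RefSeq start of the gene, 5′ to 3′ on its own strand, from the RefSeq promoter table of build GRCm38.p6 (mm10). Capitals mark matches on either strand to TGACG, the core of the cyclic AMP response element, to TNACNTCA, the wider AP-1-like or CREB-like motif, and to TGAGTCA, the classic AP-1 site.
Fos, chr12:85473640-85473889, plus strand: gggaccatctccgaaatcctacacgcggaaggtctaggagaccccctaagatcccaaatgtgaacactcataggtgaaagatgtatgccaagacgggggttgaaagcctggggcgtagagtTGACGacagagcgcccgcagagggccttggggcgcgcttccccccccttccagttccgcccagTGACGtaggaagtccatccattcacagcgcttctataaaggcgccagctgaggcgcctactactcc
Jun, chr4:95052223-95052472, minus strand: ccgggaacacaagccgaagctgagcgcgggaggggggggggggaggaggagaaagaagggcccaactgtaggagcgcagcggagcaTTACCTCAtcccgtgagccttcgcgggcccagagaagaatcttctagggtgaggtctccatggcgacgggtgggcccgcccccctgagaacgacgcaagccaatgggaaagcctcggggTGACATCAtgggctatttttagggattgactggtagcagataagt
Junb, chr8:84978749-84978998, minus strand: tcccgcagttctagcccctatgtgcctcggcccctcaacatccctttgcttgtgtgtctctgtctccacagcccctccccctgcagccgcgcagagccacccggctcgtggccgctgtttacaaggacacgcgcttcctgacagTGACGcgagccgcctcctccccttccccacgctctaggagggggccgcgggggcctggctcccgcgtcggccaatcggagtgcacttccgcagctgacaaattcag
Egr2, chr10:67537619-67537868, plus strand: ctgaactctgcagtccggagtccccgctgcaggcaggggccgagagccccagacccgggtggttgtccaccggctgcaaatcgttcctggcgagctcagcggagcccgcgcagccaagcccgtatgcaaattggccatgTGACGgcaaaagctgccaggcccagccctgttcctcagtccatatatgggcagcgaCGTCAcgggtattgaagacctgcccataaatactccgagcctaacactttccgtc
Atf3, chr1:191183334-191183583, minus strand: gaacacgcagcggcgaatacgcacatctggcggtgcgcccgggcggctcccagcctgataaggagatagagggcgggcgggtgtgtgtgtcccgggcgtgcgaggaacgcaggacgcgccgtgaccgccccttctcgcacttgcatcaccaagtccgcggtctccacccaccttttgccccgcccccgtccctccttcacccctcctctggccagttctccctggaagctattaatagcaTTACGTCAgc

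The table held entries for 8 of the 10 members, with 5 overlapping or separate windows for Egr2, and Egr1 and Egr3 are named only. The motifs were picked with the sequences in view, and a match describes letters and not a bound site. TGACG stood in a window of 5 of the 8 members (Fos, Fosb, Junb, Egr2 and Atf3), against 17.8% of the 32851 windows counted. Members are counted by gene, with a match in any window, and the shares by single window, so the units differ and Egr2 had 5 windows to match in. In Fos it begins 129 and 66 bases before the start, in Junb 106 bases before it and in Egr2 111 bases before it on the given strand and 55 bases before it on the other. TNACNTCA stood in 3 of the 8 (Jun, Jund and Atf3), against 14.0% of windows. Jun carries TTACCTCA 164 bases and TGACATCA 45 bases before its start, and Atf3 carries TTACGTCA 10 bases before its start, where it overlaps a TGACG match on the other strand. TGAGTCA stood in none of the 8 members' windows and in 4.46% of all windows. The EGR motif GCGNGGGCG stood in Fosb and Fosl2, against 4.70% of windows, and the SRF motif, searched as the CArG box on both strands, stood in Egr2 alone and in 1.47% of windows. Among motifs of E proteins, CAGCTG stood in Fos, Junb and Jund (13% of windows) and CAGGTG in Fosb (17.2% of windows), both read on both strands. TATAAA on the given strand stood in Fos, 33 bases before the start, and in 7.59% of windows.

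Id2 itself, the check on the labels, stood at 370.98, 146.76 and 149.01 FPKM in WT and at 1.67, 2.64 and 2.12 FPKM in knockout. FPKM divides fragments by transcript length and library size, so that levels of different genes can be set side by side. Every knockout library was far below every WT library, and knockout over WT gave -6.72 on the log2 scale (edgeR, adjusted p = 8.47e-05, SE 0.474), or -6.08 with WT replicate 1 left out. The labels do not name the floxed exons. The libraries held between 7699181 and 8495123 expected counts. Markers of CD8 T cells summed to between 3226 and 4348 FPKM, with Cd8a between 196 and 232, while Cd4 stood at 2.97 FPKM or less. Markers of B cells (14 of 16 in the files, Ighm and Ighd at 0) summed to 939.6, 3135 and 3664 FPKM in WT replicates 1 to 3 and to 692.5, 2985 and 624 in knockout replicates 1 to 3. Dendritic cell markers summed to between 23.6 and 26.6 FPKM in WT and between 3.63 and 6.73 in knockout (Clec9a at 0). NK cell markers, a list that includes the T cell granzyme Gzma, summed to between 566 and 1298 in WT and between 29.0 and 74.0 in knockout. Of that list, Ncr1 stood at 0, 0 and 0 FPKM in WT and at 0.17, 0 and 0.18 in knockout. CD4 and regulatory T cell markers summed to between 58.8 and 73.8 FPKM in WT and between 86.6 and 92.8 in knockout, without overlap. Myeloid (S100a9 at 0), plasma cell and stromal markers summed to at most 44.1, 113 and 46.8 FPKM. In sorted cells measured in bulk, fewer cells of a type and less RNA per cell cannot be told apart.

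The comparison of the genotypes asks whether AP-1 and EGR transcripts differ in CD8+ T cells that lack Id2. None of the 10 members passed the test (adjusted p under 0.05, edgeR), none passed in limma and 1, Atf3, passed in DESeq2, while the groups of all 10 overlapped in FPKM. Of 10890 tested genes, knockout was higher in 3.14% and lower in 8.77%, and the groups did not overlap in 32.1%. The members' median log2 fold change was 0.06, against 0.01 over all genes tested, with 7 members above 0 and 3 below. The member nearest the threshold was Atf3, the only member with an unadjusted p under 0.05. The counts behind the background, 342 genes higher and 955 lower, moved to 210, 121, 213 and 84 higher without WT replicate 2, WT replicate 3, knockout replicate 1 and knockout replicate 3, and to 564 and 517 lower without WT replicate 3 and knockout replicate 3.

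**Figure D1:**
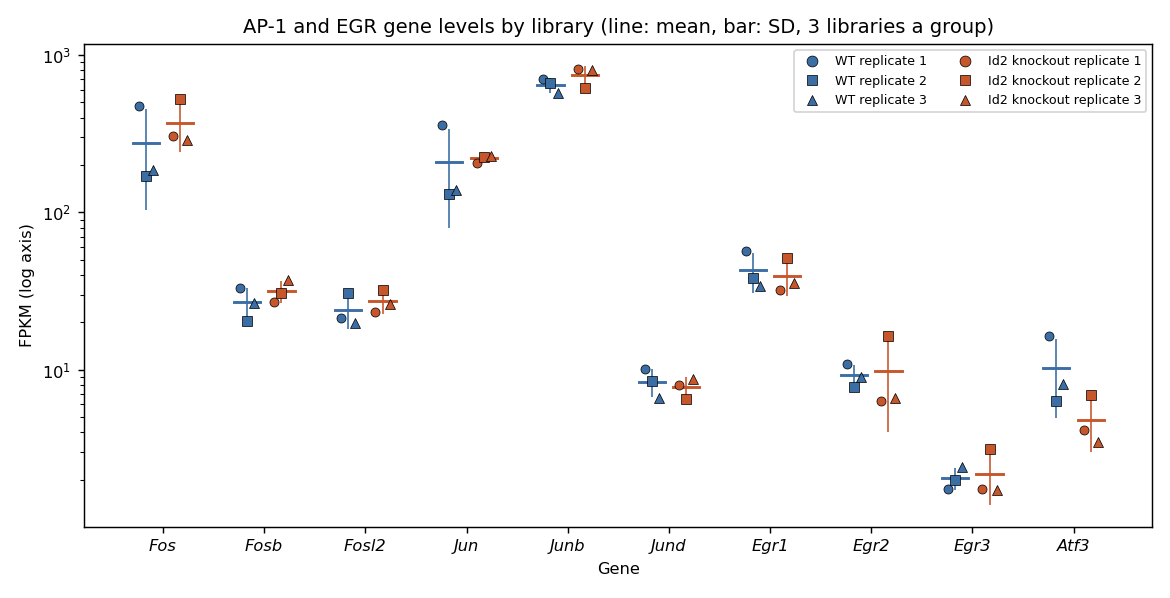
Levels of the 10 members in FPKM on a log axis, 1 point per library, with the mean as a horizontal line and the SD as a bar over the 3 libraries of each group. WT replicate 1 lies above the other WT libraries in every gene but Fosl2 and Egr3, most widely in Fos, Jun and Atf3. Knockout replicate 2 lies above the other knockout libraries in Fos, Fosl2, Egr1, Egr2, Egr3 and Atf3, most widely in Egr2. The groups overlap in every gene.

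Junb stood highest of the members in both groups, at 646 ± 68.7 FPKM in WT and 743 ± 109 in knockout (mean ± SD, n = 3). It was followed in WT by Fos (277 ± 174) and Jun (210 ± 131), whose ranges overlapped, and then by Egr1 (43.0 ± 12.3). Fosb (26.7 ± 6.43) and Fosl2 (23.9 ± 5.88) came next in WT and overlapped each other. Atf3 (10.3 ± 5.38), Egr2 (9.18 ± 1.53) and Jund (8.38 ± 1.71) formed a low group in which neighbours overlapped, and Egr3 was lowest at 2.05 ± 0.339. In knockout the order was the same down to Fosl2, with Fos (372 ± 131) now clear of Jun (220 ± 11.6) and with Egr1 (39.6 ± 10.2), Fosb (31.6 ± 5.26) and Fosl2 (27.1 ± 4.42) overlapping their neighbours. The low group in knockout ran Egr2 (9.77 ± 5.75), Jund (7.77 ± 1.15) and Atf3 (4.81 ± 1.82), again with overlaps between neighbours, above Egr3 (2.18 ± 0.803). The low members rested on few counts: Egr3 had 51 to 92 expected counts a library and Atf3 53 to 273, against 8704 to 11915 for Junb.

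Among the FOS genes, Fos, the partner of JUN proteins that is usually induced early and briefly, stood at 477.53, 169.01 and 184.92 FPKM in WT and at 306.38, 522.42 and 286.77 in knockout. WT replicate 1 and knockout replicate 2 were the high libraries, and the 2 other knockout libraries lay between WT replicate 1 and the remaining WT libraries. The log2 fold change was 0.38 (SE 0.382, adjusted p = 0.564, edgeR), a 95% interval of 0.722-fold to 2.35-fold. Fosb, which has the same kind of activating domain as Fos, stood at 33.20, 20.35 and 26.62 FPKM in WT and 26.73, 30.84 and 37.17 in knockout. Its groups overlapped over most of their range (log2 fold change 0.22, SE 0.191, adjusted p = 0.501, edgeR; interval 0.867-fold to 1.56-fold). Fosl2, a FOS protein without that activating domain that is often present for longer, stood at 21.26, 30.63 and 19.79 FPKM in WT and 23.27, 31.95 and 26.12 in knockout. Replicate 2 was the highest library of both groups in Fosl2, and the log2 fold change was 0.17 (SE 0.163, adjusted p = 0.551, edgeR; interval 0.873-fold to 1.44-fold).

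Among the JUN genes, Jun, the strongest activator of the family, stood at 361.16, 131.37 and 138.36 FPKM in WT and at 207.29, 225.03 and 228.99 in knockout. The knockout libraries lay close together, above 2 WT libraries and below WT replicate 1, so that the means nearly met (log2 fold change 0.03, SE 0.342, adjusted p = 0.962, edgeR; interval 0.603-fold to 1.74-fold). Junb, a JUN protein needed for several effector T cell programs, stood at 703.09, 664.07 and 569.43 FPKM in WT and 810.60, 617.19 and 801.90 in knockout. Its highest libraries were knockout replicates 1 and 3 and its range was narrow (log2 fold change 0.19, SE 0.146, adjusted p = 0.441, edgeR; interval 0.911-fold to 1.43-fold). Jund, a JUN protein that in many cells is present without a stimulus, stood at 10.02, 8.52 and 6.61 FPKM in WT and 8.03, 6.51 and 8.76 in knockout, with no library apart. Its log2 fold change was -0.13 (SE 0.202, adjusted p = 0.738, edgeR; interval 0.671-fold to 1.25-fold). The exons of Jund share 52.6% of their bases with the antisense gene Gm11175 in the GENCODE annotation, those of Jun 7.28% with the antisense gene Junos and those of Junb 7.52% with Prdx2, and the sources used here do not state whether reads were counted by strand. The level of Jund is therefore uncertain, and the other 7 members share no exon bases with another gene.

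Among the EGR genes, Egr1, a widely induced zinc finger activator, stood at 57.03, 38.00 and 33.90 FPKM in WT and at 32.22, 51.23 and 35.37 in knockout. WT replicate 1 and knockout replicate 2 were the high libraries, and the other 4 libraries lay between 32.22 and 38.00 FPKM (log2 fold change -0.15, SE 0.220, adjusted p = 0.717, edgeR; interval 0.643-fold to 1.27-fold). Egr2 stood at 10.79, 7.74 and 9.0 FPKM in WT and at 6.35, 16.40 and 6.55 in knockout. Knockout replicate 2 was above every WT library and the other knockout libraries were below every WT library. Its log2 fold change was 0.06 (SE 0.323, adjusted p = 0.932, edgeR; interval 0.632-fold to 1.71-fold), and without knockout replicate 2 it was -0.50. Egr3 stood at 1.74, 1.99 and 2.41 FPKM in WT and at 1.73, 3.11 and 1.71 in knockout, so that knockout replicate 2 was again the highest library (log2 fold change 0.07, SE 0.278, adjusted p = 0.906, edgeR; interval 0.681-fold to 1.61-fold).

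Atf3, a stress-induced factor that often represses its targets, stood at 16.41, 6.35 and 8.07 FPKM in WT and at 4.10, 6.88 and 3.45 in knockout. WT replicate 1 held the highest level and knockout replicate 2 fell between WT replicates 2 and 3, while the other knockout libraries lay below all WT libraries. The log2 fold change was -1.13 (SE 0.381, adjusted p = 0.0867, edgeR), an interval of 0.254-fold to 0.823-fold before adjustment for the number of genes. Atf3 was called lower with DESeq2 (-1.12, adjusted p = 0.0156, where 9.82% of tested genes were called lower) and with no filter on low values (-1.12, adjusted p = 0.0344, edgeR, where 6.72% of 16693 genes were called lower). It was also called lower by edgeR without WT replicate 2 (-1.40, adjusted p = 0.0453, 7.7% of genes lower) and without knockout replicate 2 (-1.45, adjusted p = 0.0428, 9.94% of genes lower). Leaving out WT replicate 1 gave -0.57 (edgeR, adjusted p = 0.270), so the size of the difference rested on that library. Over the 14 settings beside the reported one, the adjusted p of Atf3 ran from 0.0156 to 0.274.

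The spread between WT libraries was widest for 3 members. The ratio of the highest to the lowest WT library was 2.83 for Fos, 2.75 for Jun and 2.58 for Atf3, with WT replicate 1 highest in each. Of tested genes at a like level, 98.6%, 98.7% and 98.2% had a smaller ratio, and their median ratios were 1.17, 1.17 and 1.26. Within knockout the same ratio was 2.58 for Egr2, 1.82 for Fos and 1.10 for Jun, with 97.7%, 97.9% and 28.3% of genes at a like level below them. Jun was therefore among the most variable genes in WT and an ordinary one in knockout, while Egr2 was the reverse, with a WT ratio of 1.39 and 70.1% of genes below it. Egr1 had ratios of 1.68 in WT and 1.59 in knockout, above 95.5% and 95.2% of genes at a like level. Fosb (1.63) and Fosl2 (1.55) exceeded 94.4% and 92.1% of such genes in WT, and Atf3 (1.99) exceeded 90.0% in knockout. Junb, Jund and Egr3 had ratios between 1.23 and 1.52 in WT, above 38.6% to 80.1% of such genes, and between 1.31 and 1.82 in knockout, above 60.3% to 75.0%.

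**Figure D2:**
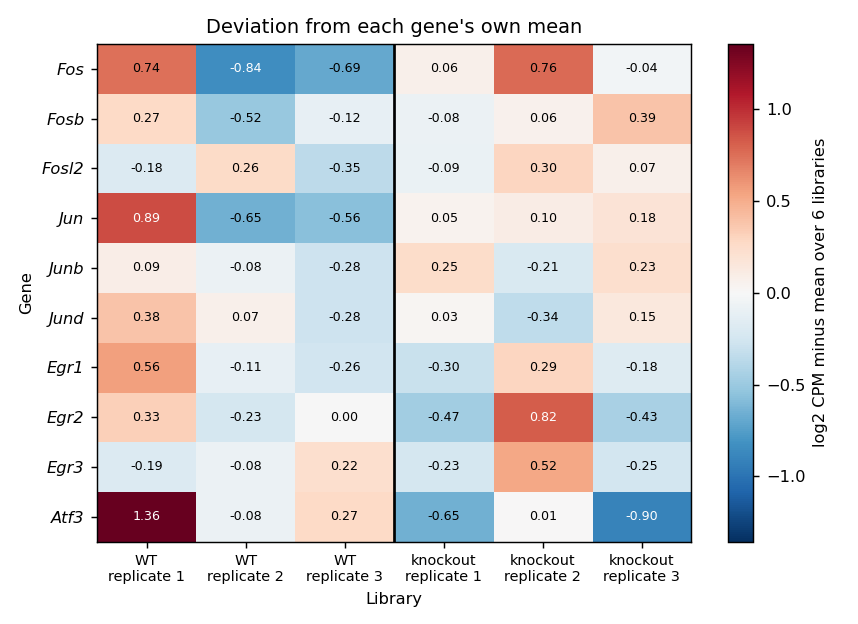
Each cell gives a member's log2 CPM (counts scaled to library size by TMM) in a library minus the mean of that gene over the 6 libraries, with red above and blue below the mean. WT replicate 1 is the highest WT column for every member but Fosl2 and Egr3. Knockout replicate 2 is the highest knockout column for Fos, Fosl2, Egr1, Egr2, Egr3 and Atf3.

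The 2 libraries that stood apart differed in which genes were raised. WT replicate 1 was at least 1.5-fold above both other WT libraries in 4 of the 10 members (Fos, Jun, Egr1 and Atf3), against 2.31% of tested genes. The same held there for 17 of 40 other immediate early genes, among them Dusp1 (a MAP kinase phosphatase, 641.67 FPKM against 267.65 and 229.08), and for 5 of 12 heat shock genes (Hspa1a, Hspa1b, Dnajb1, Hsph1 and Hspb1). Knockout replicate 2 was at least 1.5-fold above both other knockout libraries in 4 members (Fos, Egr2, Egr3 and Atf3), against 6.11% of tested genes. There it held for 2 of the 40 other immediate early genes (Klf10 and Trib1) and for none of the 12 heat shock genes. In each of the remaining 4 libraries no member stood 1.5-fold above both others of its group. WT replicate 1 had the lowest B cell marker sum of its group (939.6 FPKM) and knockout replicate 2 the highest of its group (2985 FPKM). Fos was high in both libraries. With the summed B cell markers as a covariate no member passed (edgeR), with log2 fold changes of 0.34 for Fos, -0.15 for Jun and -1.19 for Atf3 (adjusted p = 0.0699). Egr3 moved from 0.07 to 0.32 and Jund from -0.13 to -0.36. Egr3 had the order of the B cell marker sum over the WT libraries and was likewise highest in knockout replicate 2. The part of B cells in the levels of Fos, Egr3 and the other members was not tested. The part of the heat shock genes in the members' levels was not tested.

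Leaving out WT replicate 1 changed the call of 2 members, Fos and Jun. It was the highest WT library in both, so setting it aside in itself raises knockout over WT and narrows the WT spread. The calls made without it, here and in the lists below, follow in part from that choice. WT replicate 1 also had the lowest B cell marker sum of WT (939.6 FPKM). The WT libraries left, at 3135 and 3664 FPKM, were above every knockout library (692.5, 2985 and 624). The part of B cells in the calls made without WT replicate 1 was not tested. Fos then stood at 1.09 on the log2 scale (edgeR, adjusted p = 0.0150, SE 0.225), or 2.12-fold with an interval of 1.5 to 3.01. Jun had 0.73 (SE 0.110, adjusted p = 0.00308, edgeR), or 1.66-fold with an interval of 1.40 to 1.97. All 3 knockout libraries were above WT replicates 2 and 3 in both genes. Fosb moved to 0.45 (adjusted p = 0.135, edgeR) and did not pass, and the other 7 members did not pass either. In that fit 2.82% of tested genes were higher and 7.37% lower. The members' median was 0.20, against 0.06 with all libraries. With the 6 libraries no setting other than leaving out WT replicate 1 called Fos or Jun.

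**Figure D3:**
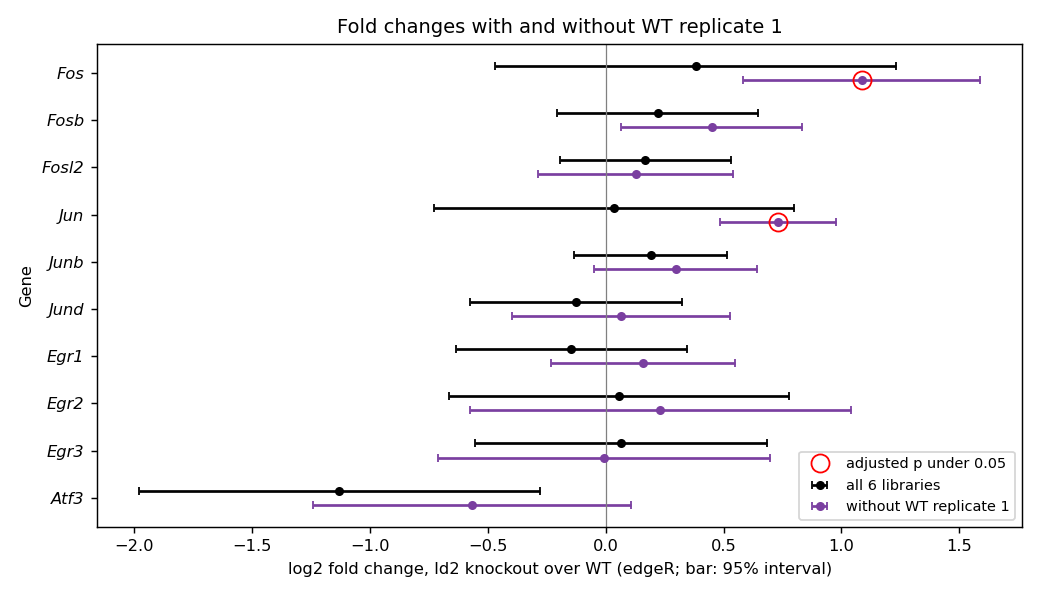
Log2 fold changes of knockout over WT from edgeR with 95% intervals, with all 6 libraries in black and without WT replicate 1 in purple, and a red circle around those with an adjusted p under 0.05. Fos moves from 0.38 to 1.09 and Jun from 0.03 to 0.73, and these are the circled values. WT replicate 1 was the highest WT library in both genes.

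The makeup of each subfamily was compared within libraries, as shares of its summed FPKM. The FOS genes summed to 531.99, 219.99 and 231.33 FPKM in WT and 356.38, 585.21 and 350.06 in knockout, and Fos made up 82.2% ± 6.75 of that in WT and 85.7% ± 3.68 in knockout. The JUN genes summed to 1074.27, 803.96 and 714.4 FPKM in WT and 1025.92, 848.73 and 1039.65 in knockout, with Junb at 75.9% ± 9.18 and 76.3% ± 3.23. Junb was thus the main JUN transcript in every library. Jun made up 33.6%, 16.3% and 19.4% in WT and 20.2%, 26.5% and 22.0% in knockout, so its share in WT replicate 1 was the highest of all. The EGR genes summed to 69.56, 47.73 and 45.31 FPKM in WT and 40.3, 70.74 and 43.63 in knockout, with Egr1 at 78.8% ± 3.65 and 77.8% ± 4.70. Egr2 made up 17.2% ± 2.34 and 18.0% ± 4.52, and Egr3 4.0% ± 1.42 and 4.20% ± 0.251. Of the 9 shares, that of Jund alone did not overlap between groups, at 0.973% ± 0.0756 in WT and 0.797% ± 0.0399 in knockout. Its two-sided exact permutation p was 0.1, the smallest that 3 libraries against 3 can give, and 0.9 after adjustment over the 9 shares, while the other 8 shares had exact permutation p-values of at least 0.5.

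The partners with which FOS and JUN proteins dimerise, and related bZIP factors, were tested for 15 of 20 listed. Of these, 1 rose and 1 fell (edgeR), against 3.14% and 8.77% of all tested genes, with a median log2 fold change of 0.17 against 0.01 over all genes. An unadjusted p under 0.05 was found for 6 of the 15, against 3001 of the 10890 tested genes. Bach2, a repressor that competes with AP-1 at shared sites and is known for keeping CD8 T cells from terminal differentiation, rose from 8.42 ± 0.608 to 14.1 ± 0.902 FPKM (log2 fold change 0.74, adjusted p = 0.00158, edgeR). Its libraries stood at 8.03, 9.12 and 8.11 FPKM in WT and 14.30, 13.16 and 14.94 in knockout, without overlap. Batf3, a JUN partner, fell from 9.84 ± 6.00 to 0.31 ± 0.392 FPKM (-4.89, adjusted p = 0.00400, edgeR), or from 171 counts to 5, a ratio of 31.8 with a counting interval of 13.4 to 99.3. Leaving out knockout replicate 3 moved the log2 value of Batf3 to -6.42. Batf3 is also one of the dendritic cell markers, whose summed level was lower in every knockout library than in every WT library. That sum contains Batf3, so it is not a separate measure. Of the other markers, Itgax stood at 12.85, 5.66 and 5.54 FPKM in WT and at 0.34, 0.96 and 0.35 in knockout. Siglech went the other way, from 0.30, 0.27 and 0.24 to 0.39, 0.48 and 0.70. The part of dendritic cells in the level of Batf3 was not tested. Batf, the JUN partner with the highest level of the BATF genes here, stood at 73.3 ± 13.6 and 73.2 ± 11.2 FPKM (adjusted p = 0.963, edgeR). The number that rose was 2 without WT replicate 1 (Mafk was added) and without WT replicate 2 (Crem was added), names taken after the values were seen.

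The MAP kinase, SRF and ternary complex genes, which carry the signal to the promoters of the members, had 1 of 29 tested genes lower and none higher, against 8.77% and 3.14% of all tested genes (median 0.10; 7 with an unadjusted p under 0.05, against 3001 of 10890). Map2k3, a kinase that activates p38, fell from 72.7 ± 10.3 to 34.9 ± 12.2 FPKM (log2 fold change -1.08, adjusted p = 0.00718, edgeR). Its libraries stood at 68.88, 64.89 and 84.44 FPKM in WT and at 25.24, 48.62 and 30.82 in knockout, where knockout replicate 2 was again highest. Srf itself, the factor of the CArG box, stood at 2.28, 2.33 and 2.73 FPKM in WT and 2.45, 1.79 and 2.78 in knockout. DESeq2 called 1 gene higher (Mrtfa), and edgeR called 2 higher without knockout replicate 2 (Mrtfa and Rasgrp1).

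The other immediate early genes, 40 tested of 41, had none higher and 2 lower (edgeR), against 3.14% and 8.77% of all tested genes, with a median of 0.15 and 8 genes at an unadjusted p under 0.05. DESeq2 called 3 higher (Per1, Tnfaip3 and Zfp36l2) and 4 lower (Ccn1, Dusp5, Ier3 and Klf10). Klf10, a TGF-beta-induced repressor, fell from 15.5 ± 3.04 to 9.10 ± 2.70 FPKM (log2 fold change -0.79, adjusted p = 0.0301, edgeR), and it no longer passed when WT replicate 1 or 2, or knockout replicate 1 or 3, was left out, in limma with either pseudocount (adjusted p = 0.0614 and 0.0643) or with the B cell covariate (adjusted p = 0.0504). Ccn1, a matrix-associated protein gene, had 119 counts over WT and 0 over knockout, which is at least 36.9-fold lower against a floor of 3 counts over the group (adjusted p = 0.00648, edgeR). Without WT replicate 1 the count was 14 higher and 1 lower, with a median of 0.40, in a fit that called 2.82% of all tested genes higher and 7.37% lower. The 14 were Dusp1, Zfp36, Zfp36l2, Klf2, Klf6, Myc, Gadd45g, Ppp1r15a, Sgk1, Nfkbia, Tnfaip3, Cd69, Rgs1 and Per1, which include feedback inhibitors of MAP kinase, mRNA stability and NF-kappaB signalling. In each of the 14, WT replicate 1 was the highest WT library. Without knockout replicate 3 the count lower was 1.

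Heat shock genes, a list of chaperones, had 1 of 12 lower and none higher (median -0.13; edgeR), a share lower near the 8.77% of all tested genes. Hspd1, a mitochondrial chaperonin, fell from 162 ± 10.7 to 116 ± 3.84 FPKM (log2 fold change -0.50, adjusted p = 0.00964, edgeR), and it lost the call without knockout replicate 3 (adjusted p = 0.0702). The inducible chaperone Hspa1a stood at 1301.13, 611.93 and 617.24 FPKM in WT and at 937.7, 751.28 and 928.42 in knockout, the arrangement seen in Jun. Without WT replicate 1, Hspa1a, Hspa1b, Dnajb1 and Hspb1 were called higher in knockout, 4 of the 12, against 2.82% of all tested genes, beside Fos and Jun. WT replicate 1 was the highest WT library in each of these.

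Genes reported as targets of NFAT and AP-1, with the NFAT partners themselves, had 7 of 15 tested members lower and none higher (edgeR), with a median of -0.26, where 8.77% of all tested genes were lower and 3.14% higher. The factors in the list did not pass: Nfatc1 stood at 49.52, 48.72 and 52.94 FPKM in WT and 54.26, 62.3 and 64.2 in knockout (adjusted p = 0.156, edgeR). Il2ra, the high-affinity chain of the IL-2 receptor, fell from 17.0 ± 3.66 to 4.24 ± 0.434 FPKM (log2 fold change -2.02, adjusted p = 0.000185, edgeR). Its libraries stood at 17.22, 13.23 and 20.54 FPKM in WT and at 3.74, 4.52 and 4.46 in knockout, well apart. Fasl, a death ligand that is also a reported EGR target, stood at 72.71, 38.70 and 43.74 FPKM in WT and at 8.14, 11.69 and 9.46 in knockout (-2.44, adjusted p = 0.000394, edgeR). Ifng, Tnfrsf9, Csf2, Ccl3 and Ccl4, named after their values were seen, were the other 5 that fell, and Ifng went from 87.7 ± 43.5 to 24.6 ± 2.48 FPKM (-1.86, adjusted p = 0.00383, edgeR). Csf2 had 52 counts over WT and 1 over knockout, a ratio of 48.4 with a counting interval of 8.31 to 1948, and that 1 count lay in knockout replicate 1. Ccl4 lost its call without knockout replicate 1 or 3. WT replicate 1 was at least 1.5-fold above both other WT libraries in 7 of these 15 genes as well (Ifng, Tnf, Cd69, Fasl, Xcl1, Ccl3 and Ccl4). In the fit that left it out, Il2ra, Fasl, Ifng, Tnfrsf9, Csf2, Ccl3 and Ccl4 were again called lower, and Cd69 and Xcl1 were called higher. In all 3 knockout libraries Fos and Jun were above WT replicates 2 and 3, and so were Cd69, Xcl1, Tnf and Nfatc1 of this list. Il2ra, Fasl, Ifng, Tnfrsf9, Csf2, Ccl3 and Ccl4, the genes called lower, were below those WT libraries. The NK cell marker sum was lower in the same libraries as the 7 genes called lower (between 566 and 1298 FPKM in WT and between 29.0 and 74.0 in knockout). That list includes Gzma, while its marker Ncr1 stood at 0 FPKM in all 3 WT libraries. The dendritic cell marker sum was lower there too (between 23.6 and 26.6 against between 3.63 and 6.73). The part of either cell type in the levels of these genes was not tested.

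The genes linked to the EGR proteins, their corepressors and reported targets, had 3 of 7 tested members higher and 1 lower (median 0.16; edgeR), against the 3.14% and 8.77% of all genes given above. The corepressors Nab1 and Nab2, which bind EGR proteins, stood at 10.4 ± 1.63 and 8.38 ± 1.42 FPKM in WT and at 9.79 ± 0.925 and 7.65 ± 0.193 in knockout (adjusted p = 0.705 and 0.605, edgeR). Id3, a relative of Id2 and an EGR target after antigen receptor signals, rose from 78.2 ± 39.8 to 286 ± 40.8 FPKM (log2 fold change 1.84, adjusted p = 0.00354, edgeR). Its libraries stood at 123.59, 61.41 and 49.47 FPKM in WT and at 253.13, 331.52 and 272.62 in knockout. It was highest in knockout replicate 2, as Egr1, Egr2 and Egr3 were. Egr1 had the order of Id3 within both groups, at 57.03, 38.00 and 33.90 FPKM in WT and 32.22, 51.23 and 35.37 in knockout. The WT order of the others differed: Id3 was lowest in WT replicate 3, where Egr3 was highest, and Egr2 was lowest in WT replicate 2. A link between Id3 and the EGR levels was not tested. Cblb, a ubiquitin ligase that dampens receptor signalling, rose from 25.8 ± 1.67 to 40.3 ± 7.68 FPKM (0.62, adjusted p = 0.0125, edgeR), with 48.87 FPKM in knockout replicate 2 against 34.12 and 37.77 in the others. Dgka, a kinase that removes the lipid messenger diacylglycerol and the remaining member that rose, went from 250 ± 13.9 to 386 ± 57.7 FPKM (0.62, adjusted p = 0.0169, edgeR), with its lowest knockout level in replicate 2 (322.75). Cblb lost its call without WT replicate 3 (adjusted p = 0.0632), which left Id3 alone higher there, and Dgka no longer passed when WT replicate 2 or 3, or knockout replicate 1 or 3, was left out. The members Egr1, Egr2 and Egr3 did not pass in any setting run.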

How the data were processed

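RNA from 3 WT and 3 Id2 knockout samples of sorted CD8+ T cells was extracted with the RNeasy Micro kit and sequenced, per the labels' protocols. CASAVA, Bowtie2, RSEM and build mm10 appear without versions in the submitters' processing notes. For each gene the authors deposited an expected count, in which RSEM splits reads with several matching genes, and an FPKM value, per the file headers. Fractional values made up about 25% of these counts. A gene absent from a library's table was set to 0.

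Tables were joined by NCBI gene number, with symbols from the RefSeq table for 16707 of 16749 numbers. Expected counts were rounded, scaled by TMM and tested two-sided by quasi-likelihood (edgeR 4.0.16, R 4.3.3) on the 10890 genes that reached 1 FPKM in 3 or more of the 6 libraries, which dropped 5859 genes and kept all 10 members. Benjamini-Hochberg adjustment covered all tested genes, and 0.05 was the threshold. The fitted biological coefficient of variation was 0.156. Results were recomputed with DESeq2 1.42.0, with DESeq2 size factors inside edgeR, with limma 3.58.1 on the deposited FPKM as log2(FPKM + 1) or log2(FPKM + 0.1), without the filter, with a minimum of 5 FPKM, with a replicate block, with summed B cell markers as covariate, and without each library. On simulated counts of 10890 genes, edgeR recovered 69% of 2-fold and 94% of 4-fold changes, and 10 of its 173 calls were false. The changed genes were drawn at random from all tested genes. These shares therefore do not give the recovery of members as variable as Fos, Jun and Atf3. Shares were compared by an exact permutation test over the libraries. Count ratios have 95% Clopper-Pearson intervals (scipy 1.17.1), for counting error alone. Chi-square per degree of freedom between libraries of a group was 5.62 to 18.6, so none was a duplicate.

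Likeness of profiles was the root mean square difference of log2 CPM, with a prior count of 2, after each gene was centred on its mean. Figures were drawn with matplotlib 3.10.9. The members and lists were chosen with earlier results of these data known, and the lists share Maff, Cd69 and Fasl. The genes named were Id2, the members, in each list the 2 of smallest p in each direction past the threshold, and for Fos, Jun, Egr1 and Egr2 the 3 genes of most like profile. Dusp1, Hspa1a, Srf, Batf, Nfatc1, Nab1, Nab2 and Dgka, and the genes listed for single libraries or alternatives, were named outside that rule, after their values were seen.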

Additional observations from a re-analysis of the deposited data

How the results depend on the processing

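Of 139 alternative values of the members' log2 fold changes, 119 kept their direction and side of the threshold, 6 gained a call and 14 changed sign; the cause was not tested. With 0 members called in the reported fit, no call could be lost. The members called ranged from 0 to 2 higher and from 0 to 1 lower with a library left out, and 1 was lower with DESeq2 or no filter. Log2 fold changes that changed sign were those of Jun (-0.15 with the B cell covariate, -0.23 to 0.73 with a library left out), Junb (-0.0061 with the covariate), Jund (-0.28 to 0.066), Egr1 (-0.35 to 0.16), Egr2 (-0.031 and -0.045 with limma, -0.050 with the replicate block, -0.50 to 0.29) and Egr3 (-0.25 to 0.22). bZIP factors had 2 higher with the block (Bach2 and Crem) or the covariate (Atf2 and Bach2), 1 to 2 higher with a library left out, 2 lower with no filter (Fosl1 was added) and 0 lower at an FPKM minimum of 5 (Batf3 was not tested). With a library left out, EGR-linked genes had 1 to 3 higher, MAP kinase genes 0 to 2, NFAT and AP-1 targets 0 to 2, heat shock genes 0 to 4 higher and 0 to 1 lower, and other immediate early genes 0 to 14 higher and 1 to 2 lower. The last had 3 higher and 4 lower with DESeq2 and 2 higher with no filter, and MAP kinase genes 1 higher with DESeq2. With a library left out, all tested genes gave 84 to 480 higher and 517 to 1082 lower, and the other alternatives 273 to 494 higher and 780 to 1122 lower. Shares (knockout minus WT, percentage points) ran from -2.61 to 0.060 for Fosb, -4.76 to 0.21 for Fosl2, -3.58 to 5.06 for Jun, -4.87 to 3.71 for Junb, -2.99 to 1.70 for Egr1, -1.81 to 2.27 for Egr2 and -0.54 to 0.87 for Egr3, and the share of Jun was 0.17 in expected counts. The data do not show that the replicate numbers pair the samples, and they cannot exclude it. Same-numbered libraries deviated together with correlations of 0.118, 0.0750 and -0.0303, and not every library correlated best with its own number. With the replicate block 0 members were called, 2 of 36 results changed (those given above), and 295 genes were higher and 888 lower. Expected counts were lowest for Egr3, Atf3 and Jund. The SE was widest for Fos (0.382), Atf3 (0.381) and Jun (0.342), so depth alone did not set the precision.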

Other observations

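Genes whose levels followed those of Fos, Jun, Egr1 and Egr2 over the 6 libraries were looked for among 7440 genes with a mean of at least 5 FPKM, by the root mean square difference between centred log2 CPM profiles, where 0 is the same profile. The genes compared share library, depth and scaling, so the values are a description over 6 libraries. Nearest to Fos were Zfp36, an mRNA-destabilising protein gene (0.21), Mir17hg, the host of a microRNA cluster (0.25), and Dusp1 (0.27), against a median of 0.65 over all genes compared. Zfp36 stood at 460.14, 219.33 and 233.86 FPKM in WT and at 330.5, 466.54 and 360.03 in knockout, high like Fos in WT replicate 1 and knockout replicate 2. Nearest to Jun were the cochaperone gene Dnajb4 (0.11), Tagap (0.11) and the chemokine gene Xcl1 (0.13), against a median of 0.55. Dnajb4 stood at 65.27, 27.91 and 23.81 FPKM in WT and at 39.06, 37.88 and 40.37 in knockout, with WT replicate 1 alone apart.

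Nearest to Egr1 were Cnr2, a cannabinoid receptor gene (0.11), Lin9 (0.11) and Ms4a6d (0.11), against a median of 0.37. Nearest to Egr2 were Irak2 (0.16), Nfkbid (0.22) and Dhx58 (0.23), against a median of 0.50. Nfkbid, which codes for an inhibitor-like regulator of NF-kappaB, stood at 70.72, 62.94 and 61.04 FPKM in WT and at 59.69, 126.94 and 65.49 in knockout, where replicate 2 stood apart as it did for Egr2. Among the members, the closest profiles were those of Junb and Jund (0.18), followed by Fosb and Junb (0.28), Egr1 and Egr2 (0.29), Egr2 and Egr3 (0.29) and Fos and Jun (0.31).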
